A study of Homo sapiens with 20 samples.

Results

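Death receptors are cell surface proteins of the TNF receptor family that carry a death domain in their cytoplasmic tail. When FAS or a TRAIL receptor binds its ligand, its death domain recruits the adaptor FADD, which brings in caspase 8 and starts the extrinsic route of apoptosis. TNFRSF1A, the main TNF receptor, works through other adaptors and the kinase RIPK1, and mostly signals survival and inflammation before death. FAS and the TRAIL receptor TNFRSF10B are known as direct transcriptional targets of p53. The 8 genes described here are the receptors FAS, TNFRSF10A, TNFRSF10B, TNFRSF10D and TNFRSF1A, the ligand TNFSF10 (TRAIL), the adaptor FADD and the kinase RIPK1. They were taken by symbol from the platform annotation. Of the 8, 7 had a transcript cluster (the probes of 1 transcription unit) named for them alone and were measured, among 18417 genes in all. RIPK1 had no such cluster and is not analysed here.

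The series follows cells in which p53 was induced with different doses of doxycycline and for different times. The cells were B5/589, an immortalized human mammary epithelial line, and every group carried the same inducible p53 transgene, switched on by doxycycline. The 5 groups had 4 arrays each. Uninduced cells (0 ng) were collected at 24 h, cells given 3 ng at 12 h and at 24 h, and cells given 5 ng at the same 2 times. The labels state no volume for the doses, no uninduced cells at 12 h, and no cells without the transgene, so doxycycline and p53 cannot be told apart as sources of a difference. Whether the replicates of a group were independent cultures is not in the labels, and p-values cover only the variation among these arrays, which could be technical in origin.

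Values are log2 signals as deposited, and a difference of 1 is a doubling of the signal. The labelled cell type was checked on its markers, and the group means were 9.99 to 10.18 over 6 luminal and epithelial markers and 10.86 to 11.17 over 3 basal markers. The 5 measured immune markers had group means of 2.75 to 3.16, the lowest being the leukocyte antigen PTPRC at -0.70 to -0.34. Of these 5, the monocyte markers CD14 (5.06 to 6.48) and ITGAM (5.03 to 6.28) lay near or above the array medians. At 24 h CD14 averaged 6.48 at 0 ng, 5.77 with 3 ng and 5.06 with 5 ng, while ITGAM averaged 5.03, 5.58 and 6.13 at these doses. Their part in the results was not tested. The group means were 2.96 to 3.33 over 3 endothelial markers and 3.76 to 4.15 over 4 fibroblast markers, of which COL1A1 was highest at 5.97 to 6.38. The luminal keratin KRT19 had group means of 5.31 to 5.59, near the array medians. Array brightness differed, with array medians of 4.54 to 5.54. Group averages of these medians at 24 h were 5.07 at 0 ng, 4.85 with 3 ng and 4.80 with 5 ng. At 12 h they were 5.15 with 3 ng and 4.96 with 5 ng. Over all genes the median log2 difference from 0 ng at 24 h was -0.24 with 5 ng and -0.23 with 3 ng. After quantile normalization, which gives all arrays the same spread of values, these medians were 0.07 and 0.08. Results after that step are therefore given beside those on the deposited values.

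FAS, the receptor of FAS ligand, was higher with 5 ng of doxycycline than in uninduced cells and had an intermediate mean with 3 ng at 24 h. At 24 h its signals were 8.73, 8.49, 8.20 and 8.86 at 0 ng, then 9.07, 9.02, 9.04 and 8.76 with 3 ng, then 9.60, 9.55, 9.51 and 9.80 with 5 ng. At 12 h they were 9.16, 9.76, 9.20 and 9.58 with 3 ng and 9.44, 9.65, 9.60 and 9.70 with 5 ng. All 4 arrays of 5 ng at 24 h stood above all uninduced arrays, whereas 1 array of 3 ng at 24 h fell within the uninduced range. Ordered by mean, the groups ran from 0 ng, through 3 ng at 24 h, 3 ng at 12 h and 5 ng at 12 h, to 5 ng at 24 h. In that order the neighbouring groups overlapped, except for 3 ng at 24 h and 3 ng at 12 h. With 5 ng at 24 h FAS rose 2.06-fold over 0 ng, a log2 difference of 1.045 ± 0.16 (SE, 4 arrays against 4). Its limma p-value, adjusted by Benjamini-Hochberg over all genes, was 3.83e-05. With 3 ng at 24 h the difference was 0.40 ± 0.16 and did not pass (limma adjusted p = 0.0735). Leaving out the brightest uninduced array, replicate 4, gave 0.50, which passed (0.0465). After quantile normalization FAS rose at both doses, by 1.40 with 5 ng and 0.87 with 3 ng. These are measurements of bulk RNA, in which a change in the share of cells and a change in RNA per cell cannot be told apart.

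**Figure D1:**
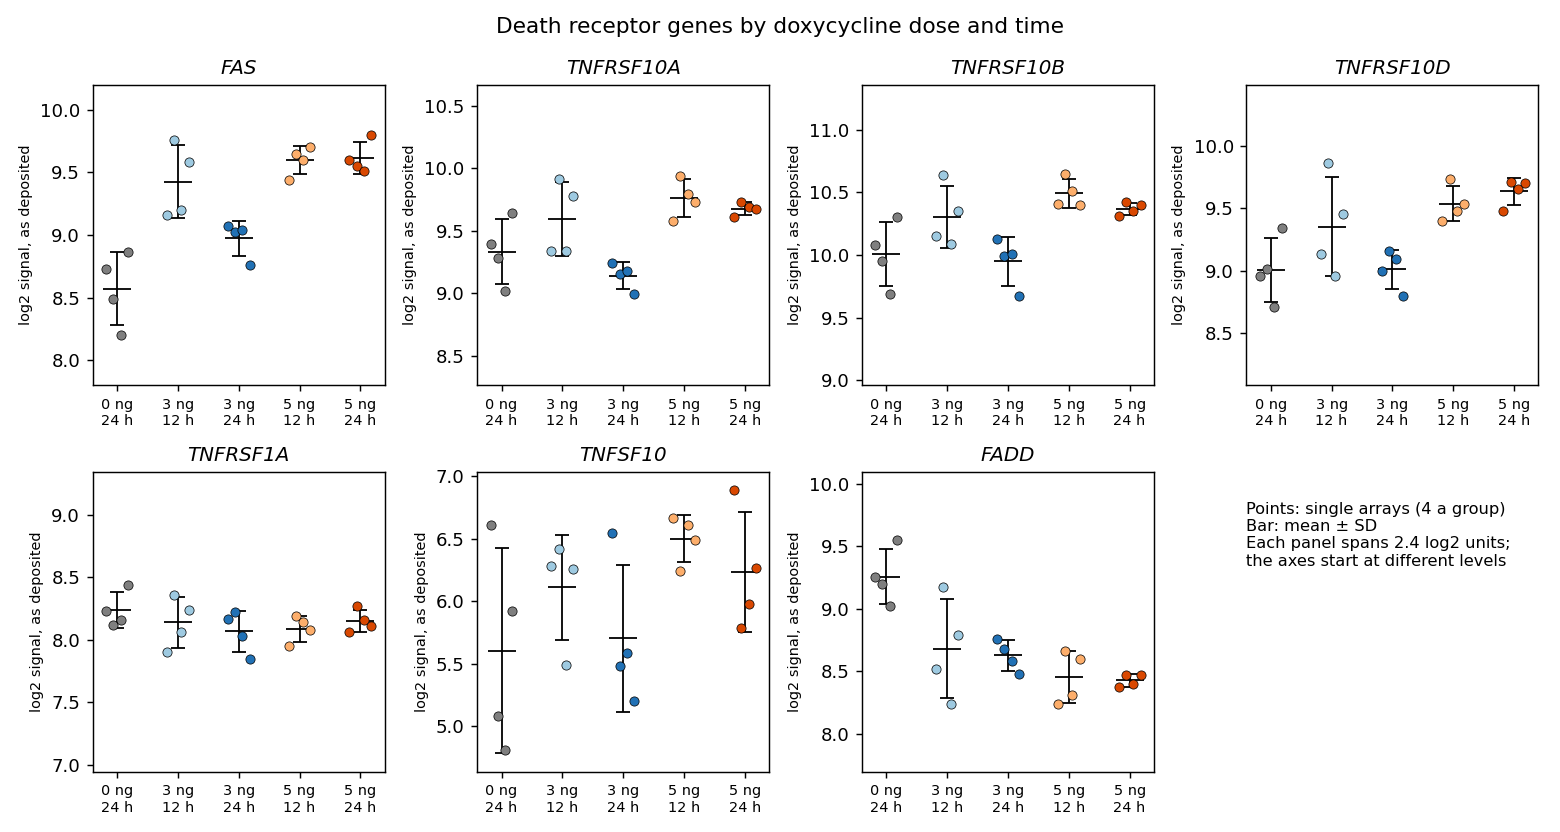
Log2 signal as deposited (vertical axis) of the 7 measured genes in each of the 20 arrays, by doxycycline dose and time (horizontal axis). Points are single arrays and bars are the mean ± SD of 4 arrays. By group mean FAS is highest in both groups with 5 ng (arrays 9.44 to 9.80) and FADD in uninduced cells (arrays 9.02 to 9.55). Arrays with 3 ng at 12 h reach into both ranges, with FAS up to 9.76 and FADD up to 9.17.

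The direct comparison of the doses at 24 h gave FAS 0.64 ± 0.16 higher with 5 ng than with 3 ng, with no overlap of the arrays (limma adjusted p = 0.0309). This call did not survive the loss of any 1 of the 8 arrays, with differences of 0.57 to 0.68 and adjusted p-values of 0.056 to 0.143 in limma. After quantile normalization the difference was 0.53 (limma adjusted p = 1.6e-05), and it passed whichever of the 8 arrays was left out.

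The promoter sequence of FAS is shown because FAS had the largest rise among the 7 genes. RefSeq (GRCh38.p14) gives 3 windows of the 250 bases before an annotated FAS start, and 1 of them holds a p53 half-site, the decamer to which a pair of p53 subunits binds. That window is chr10:88991181-88991430 on the plus strand, shown 5′ to 3′. It lies downstream of the first annotated FAS start, whose own window (chr10:88990548-88990797) holds no half-site. Capitals mark the half-site GGACAAGCCC and matches to GGGCGG, the core of the GC box, on either strand (CCGCCC on the minus strand); the matches do not overlap.
FAS: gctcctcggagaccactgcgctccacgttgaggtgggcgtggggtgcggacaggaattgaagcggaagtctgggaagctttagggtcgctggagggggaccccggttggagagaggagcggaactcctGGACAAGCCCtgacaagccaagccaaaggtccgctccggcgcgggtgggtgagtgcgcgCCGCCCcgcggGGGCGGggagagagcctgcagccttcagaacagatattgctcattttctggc
Across 35116 such windows, 5.57% held a p53 half-site and 42.6% a GGGCGG on either strand. These shares are per window, and FAS had 3 windows. A match describes these letters and was not tested for binding.

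The TRAIL receptors TNFRSF10A and TNFRSF10B, which carry death domains, and TNFRSF10D, a decoy with a truncated one, lie close together on chromosome 8. TNFRSF10D was the member of the 3 whose difference at 24 h passed on the deposited values. At 24 h TNFRSF10D measured 8.96, 9.01, 8.71 and 9.34 at 0 ng, then 9.0, 9.16, 9.09 and 8.80 with 3 ng, then 9.48, 9.71, 9.65 and 9.70 with 5 ng. The arrays with 5 ng were thus all above those of the other 2 doses, which overlapped each other. TNFRSF10D rose by 0.63 ± 0.17 with 5 ng over 0 ng at 24 h, or 1.55-fold (limma adjusted p = 0.00866, n = 4 arrays in each group). With 3 ng its difference from 0 ng was 0.007 (limma adjusted p = 0.987), with a 95% interval of -0.35 to 0.37.

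TNFRSF10B, the receptor also called DR5, measured 10.08, 9.95, 9.69 and 10.30 at 0 ng, then 10.13, 9.99, 10.01 and 9.67 with 3 ng, then 10.31, 10.42, 10.35 and 10.40 with 5 ng at 24 h. The lowest array with 5 ng was just above the highest uninduced array. The difference of 0.37 ± 0.15 between 5 ng and 0 ng did not pass (limma adjusted p = 0.0794). TNFRSF10A, or DR4, measured 9.39, 9.28, 9.02 and 9.64 at 0 ng, then 9.24, 9.15, 9.18 and 8.99 with 3 ng, then 9.61, 9.73, 9.69 and 9.67 with 5 ng. Its arrays with 5 ng and 0 ng overlapped, and the difference of 0.34 ± 0.15 did not pass (limma adjusted p = 0.107). Both genes passed without replicate 4 of 0 ng, the brightest uninduced array, at 0.46 for TNFRSF10B (limma adjusted p = 0.0346) and 0.45 for TNFRSF10A (0.0451).

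After quantile normalization all 3 TRAIL receptors rose with 5 ng over 0 ng at 24 h, TNFRSF10D by 0.97, TNFRSF10B by 0.68 and TNFRSF10A by 0.67. With 3 ng they then rose by 0.46, 0.38 and 0.25 in the same order. Against 0 ng as deposited, the 3 ng differences of TNFRSF10B (-0.055) and TNFRSF10A (-0.19) had the opposite sign and did not pass. Between 5 ng and 3 ng at 24 h the differences were 0.62 for TNFRSF10D, 0.54 for TNFRSF10A and 0.42 for TNFRSF10B. With FAS, 4 of the 7 genes stood higher with 5 ng without overlap of the arrays, as 8.31% of all genes did. None of the 3 TRAIL receptors passed as deposited (limma adjusted p = 0.0636, 0.0739 and 0.234), and all 3 passed after quantile normalization at 0.51, 0.42 and 0.30.

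TNFRSF1A showed the narrowest spread of group means, and its arrays overlapped between all groups at 24 h. Its mean was 8.24 ± 0.14 at 0 ng, 8.07 ± 0.17 with 3 ng and 8.15 ± 0.09 with 5 ng at 24 h (SD, n = 4 arrays each). The difference of 5 ng from 0 ng was -0.09, with a 95% interval of -0.36 to 0.19, and that of 3 ng was -0.17, with an interval of -0.44 to 0.10. The sign turned with the scaling. After quantile normalization TNFRSF1A rose by 0.30 with 5 ng (limma adjusted p = 0.00433) and by 0.31 with 3 ng (0.00566), and after centring each array on its median the differences were 0.18 and 0.055 and did not pass.

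TNFSF10, the ligand of the TRAIL receptors, had the widest spread between replicates of the 7 genes. At 24 h it measured 6.61, 5.08, 4.81 and 5.92 at 0 ng, then 6.55, 5.48, 5.59 and 5.2 with 3 ng, then 6.89, 5.79, 5.98 and 6.27 with 5 ng. The groups overlapped, and replicate 1 was the highest array of each group at 24 h. The difference of 0.63 ± 0.34 between 5 ng and 0 ng did not pass (limma adjusted p = 0.197). It was 0.96 and passed once replicate 1 of 0 ng was left out (0.0338). After quantile normalization it was 0.94 and passed (0.0274), but not without replicate 2 (0.83) or 3 (0.72) of 0 ng or replicate 1 of 5 ng (0.73). As deposited, the spread among uninduced arrays (SD 0.82) was larger than the difference of 0.63. After quantile normalization the SD was 0.69, smaller than the difference of 0.94. These SDs do not take replicate numbers into account. As deposited, each array with 5 ng at 24 h was above the uninduced array of the same number.

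FADD, the adaptor shared by FAS and the TRAIL receptors, moved the other way. At 24 h it measured 9.25, 9.20, 9.02 and 9.55 at 0 ng, then 8.76, 8.68, 8.58 and 8.48 with 3 ng, then 8.37, 8.47, 8.40 and 8.47 with 5 ng. At 12 h it measured 8.52, 9.17, 8.24 and 8.79 with 3 ng and 8.24, 8.66, 8.31 and 8.60 with 5 ng. Every array with doxycycline was below the lowest uninduced array, except replicate 2 of 3 ng at 12 h, the brightest of the 20 arrays. FADD fell by 0.83 ± 0.17 with 5 ng against 0 ng at 24 h, to a signal 1.77-fold lower (limma adjusted p = 0.000841). It fell by 0.63 ± 0.17 with 3 ng (limma adjusted p = 0.00994). The fall with 5 ng remained past the threshold after quantile normalization (-0.46, adjusted p = 5.39e-05) and after centring (-0.56, 0.00593). The fall with 3 ng did not, at -0.17 (limma adjusted p = 0.0906) after quantile normalization and -0.41 (0.0611) after centring. On each of the 3 scales all arrays of both doses at 24 h lay below all uninduced arrays.

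The promoter of FADD is shown beside that of FAS because FADD was the gene that fell. The 250 bases before its RefSeq start, chr11:70203046-70203295 on the plus strand (GRCh38.p14), hold no match to the p53 half-site and 2 matches to GGGCGG on either strand, in capitals.
FADD: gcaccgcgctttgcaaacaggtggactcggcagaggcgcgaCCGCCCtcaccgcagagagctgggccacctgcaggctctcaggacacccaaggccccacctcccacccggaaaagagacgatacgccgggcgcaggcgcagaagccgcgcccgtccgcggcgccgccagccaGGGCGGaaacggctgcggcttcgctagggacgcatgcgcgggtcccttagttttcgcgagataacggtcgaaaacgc
The absence of a match says only that these letters are not in this window. Windows were found for 5 of the 8 genes, and those of TNFRSF1A and TNFSF10 held no half-site either.

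Counted together for 5 ng against 0 ng at 24 h, 2 of the 7 genes rose (FAS and TNFRSF10D) and 1 fell (FADD), where 4.52% of all genes rose and 23.5% fell. After quantile normalization 6 rose and FADD fell, where 20.6% of all genes rose and 17.2% fell. The median difference was 0.37 over the 7 genes and -0.24 over all genes as deposited, and 0.68 and 0.07 after quantile normalization. For 3 ng against 0 ng at 24 h none of the 7 rose and FADD fell, beside 1.5% and 23% of all genes in limma. After quantile normalization 5 rose and none fell, beside 15.4% and 12.5%. In that comparison the median was -0.055 over the 7 genes and -0.23 over all genes as deposited, and 0.36 and 0.08 after quantile normalization. For 5 ng against 3 ng at 24 h FAS alone of the 7 rose and none fell, beside 1.79% and 0.755%. After quantile normalization FAS and the 3 TRAIL receptors rose and FADD fell, beside 5.96% and 4.42%. That fall of FADD (-0.28) did not pass without replicate 1 or 4 of the arrays with 3 ng or replicate 4 of those with 5 ng. The 2 comparisons with 0 ng share their uninduced arrays, so their values are given side by side and not as independent.

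**Figure D2:**
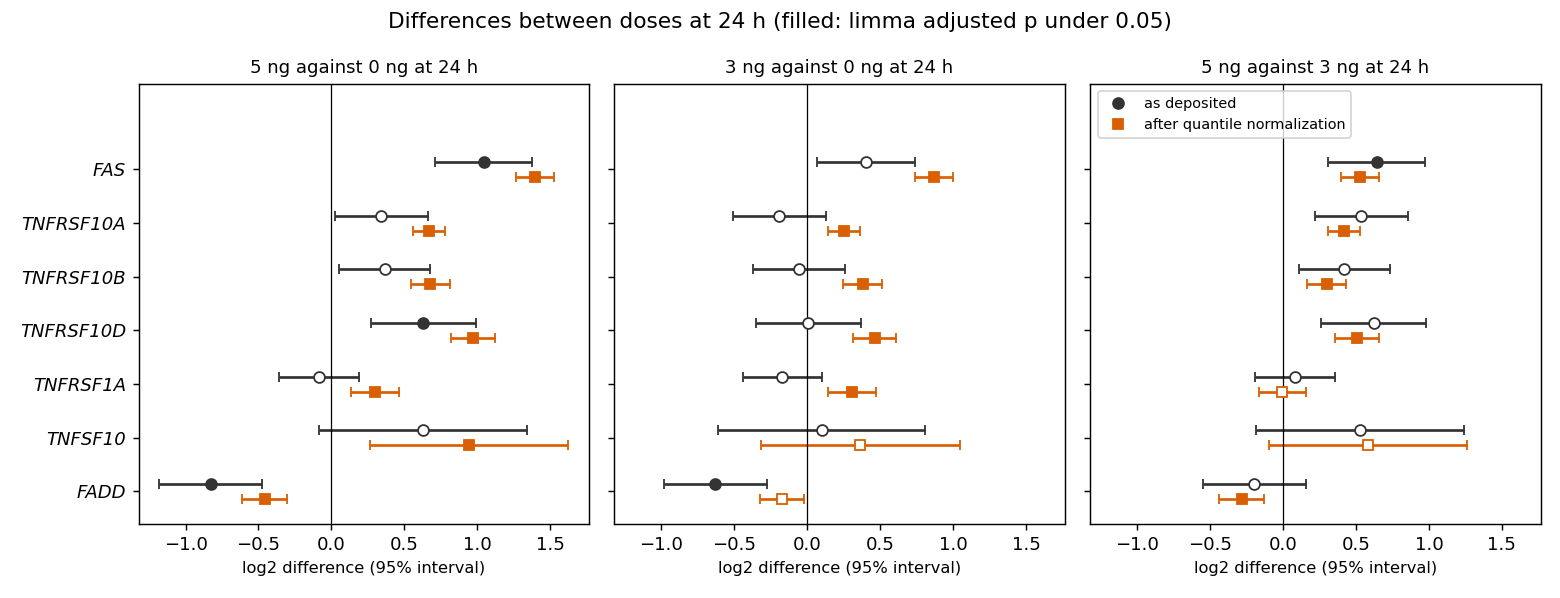
Log2 differences (horizontal axis) of the 7 genes between doses at 24 h, with 95% intervals, as deposited (circles) and after quantile normalization (squares). Filled marks have a limma adjusted p under 0.05, over 4 arrays in each group. FAS lies furthest right for 5 ng against 0 ng, at 1.045 and 1.40, and FADD furthest left, at -0.83 and -0.46.

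**Figure D3:**
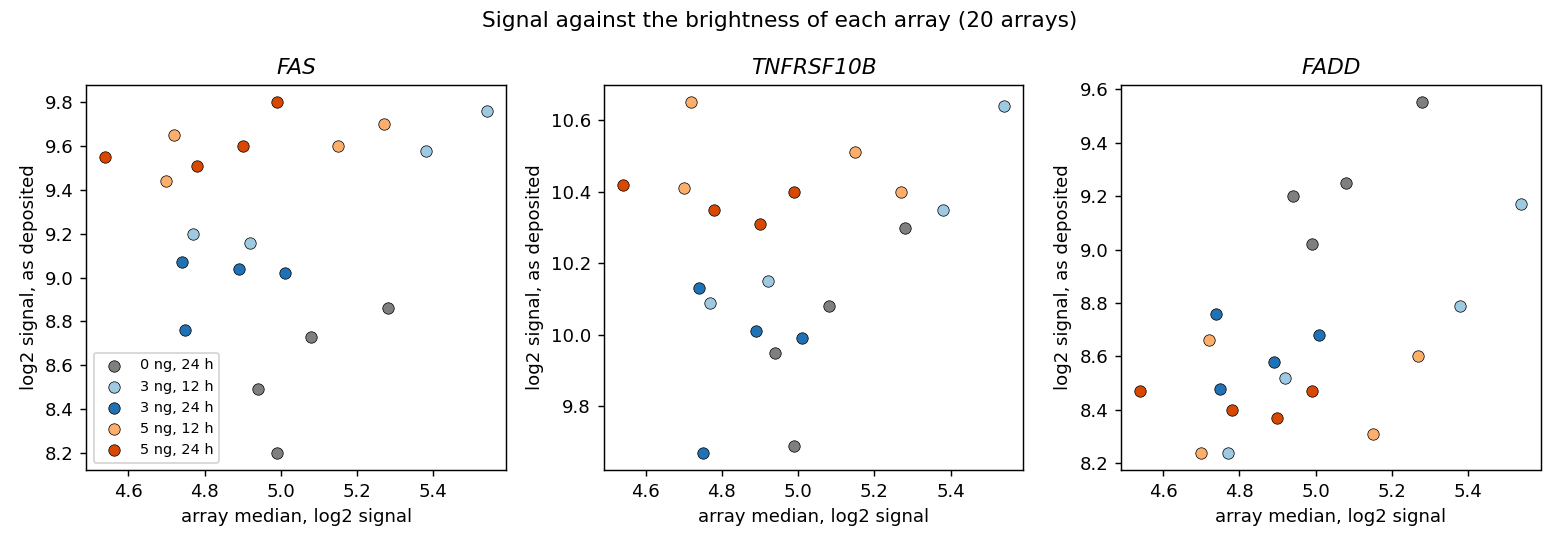
Log2 signal as deposited of FAS, TNFRSF10B and FADD (vertical axes) against the median log2 signal of the same array (horizontal axes, 4.54 to 5.54), with 1 point for each of the 20 arrays and colours for the 5 groups. At like brightness the arrays with 5 ng stand above the uninduced ones for FAS and below them for FADD, and within the uninduced group the array with the highest median also has the highest signal of each gene.

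The difference between 2 genes within an array does not depend on a shift common to both, but the arrays did not differ by such a shift alone. In replicate 2 of 5 ng at 12 h quantile normalization moved FAS from 9.65 to 9.52 and TNFSF10 from 6.24 to 6.29. The level of 1 probe set cannot be set against that of another, so only the change of this difference between groups was compared, a step added after the data were seen. With 5 ng over 0 ng at 24 h FAS changed by 0.70 more than TNFRSF10A, by 0.68 more than TNFRSF10B and by 0.42 more than TNFRSF10D. For FAS minus TNFRSF10B the arrays ranged from -0.87 to -0.60 with 5 ng and from -1.49 to -1.35 with 0 ng. FAS also changed more than these receptors with 3 ng, by 0.60, 0.46 and 0.40 in the same order. None of these 6 comparisons had overlapping arrays, and each reached a two-sided exact permutation p of 0.0286, the smallest that 4 against 4 arrays allow. Over 63 such tests the Benjamini-Hochberg adjusted p was 0.0529, so none of the 63 passed 0.05. With this smallest p, a pair can pass the adjustment only if many of the 63 reach it too. The pairs also share genes and arrays, so the failure to pass says little about any 1 pair. Among the TRAIL receptors, TNFRSF10D changed by 0.29 more than TNFRSF10A and by 0.27 more than TNFRSF10B with 5 ng over 0 ng, again without overlap (exact permutation p = 0.0286, adjusted 0.0529). TNFRSF10B and TNFRSF10A differed in their change by 0.023 with overlapping arrays (exact permutation p = 0.314, adjusted 0.413).

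Between 5 ng and 3 ng at 24 h FAS exceeded TNFRSF10D by 0.02 in its change (adjusted exact permutation p = 0.856) and TNFRSF10A by 0.11, and the arrays overlapped in both cases. Against TNFRSF10B the excess was 0.22 without overlap (exact permutation p = 0.0286, adjusted 0.0529). The excess of FAS over TNFRSF10D at this step took the opposite sign when 1 array with 3 ng, replicate 2 (-0.013), or 1 with 5 ng, replicate 1 (-0.027) or replicate 4 (-0.02), was left out. The widest contrast was that of FAS with FADD, whose within-array difference changed by 1.87 with 5 ng and by 1.03 with 3 ng over 0 ng, without overlap in either case.

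Against uninduced cells of 24 h, the only uninduced cells here, so that dose and time differ together, FAS rose by 1.03 ± 0.16 with 5 ng at 12 h (limma adjusted p = 0.000178) and by 0.86 ± 0.16 with 3 ng at 12 h (0.0037). The call with 3 ng was lost when only the 2 groups compared were fitted (limma adjusted p = 0.0643). With 5 ng at 12 h 3 of the 7 genes rose, beside 3.44% of all genes, and 1 fell, beside 11.5%. The other 2 risen genes were TNFRSF10D (0.53, limma adjusted p = 0.0436) and TNFRSF10B (0.49, 0.0336), and FADD fell by 0.80 (0.00302). TNFRSF10B kept its call without replicate 4 of either group and lost it without any of the other 6 arrays, at 0.38 to 0.52 (limma adjusted p = 0.0601 to 0.0946). TNFRSF10D kept its call without replicate 4 of 0 ng, and lost it without any of the other 7 arrays, at 0.43 to 0.58 (0.0684 to 0.111). Neither passed when only the 2 groups compared were fitted (limma adjusted p = 0.0736 for TNFRSF10D and 0.0923 for TNFRSF10B). With 3 ng at 12 h FAS alone of the 7 rose, beside 1.57% of all genes, and none fell, beside 1.24%. After quantile normalization 5 rose and 1 fell with 5 ng at 12 h (11.5% and 14.3% of all genes), and 4 rose and 1 fell with 3 ng at 12 h (6.61% and 8.57%). The rise of TNFSF10 among the 5 (1.03) did not pass without replicate 1 of 5 ng at 12 h or without replicate 2 or 3 of 0 ng.

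FAS had closely similar means in both groups with 5 ng, 9.62 ± 0.13 at 24 h and 9.60 ± 0.11 at 12 h (SD, n = 4 arrays each), a difference of 0.018 with a 95% interval of -0.32 to 0.35. Over the 5 receptors this difference of 24 h from 12 h was between -0.12 and 0.10. None of the 7 genes was called between 24 h and 12 h with 5 ng, beside 0.424% of all genes that rose and 3.55% that fell. With 3 ng FAS averaged 8.97 ± 0.14 at 24 h and 9.43 ± 0.29 at 12 h, a difference of -0.45 ± 0.16 without overlap that did not pass (limma adjusted p = 0.128). TNFRSF10A also had a difference of -0.45 without overlap (limma adjusted p = 0.108), and it passed without replicate 1 or 3 of 3 ng at 12 h, at -0.54 in both cases. As deposited no gene of the 7 was called there, beside 0.0706% of all genes that rose and 4.36% that fell. After quantile normalization FAS (-0.24) and TNFRSF10A (-0.25) fell (limma adjusted p = 0.0118 and 0.00283), beside 6.06% of all genes. After centring each array on its median both differences were -0.15 with overlapping arrays and did not pass (limma adjusted p = 0.615 and 0.669). The difference between doses at 12 h was 0.17 for FAS and did not pass, nor did that of any other of the 7, beside 0.0217% of all genes that rose and 0% that fell, where limma called 4 genes in all.

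Whether the gap between doses was wider at 24 h than at 12 h was tested as an interaction. For FAS it was 0.47 ± 0.23 (limma adjusted p = 1), and its 95% interval ran from -0.001 to 0.94. The interaction was 0.44 for TNFRSF10D, 0.37 for TNFRSF10A and 0.24 for TNFRSF10B, and none passed. After quantile normalization it was 0.35 for FAS, with a 95% interval of 0.16 to 0.53 (limma adjusted p = 0.215). For TNFRSF10D it was then 0.32 (0.10 to 0.53), for TNFRSF10A 0.24 (0.085 to 0.395) and for TNFRSF10B 0.14 (-0.05 to 0.32). These intervals are not adjusted for the number of genes, and none of these interactions passed. After centring the interval of FAS was -0.062 to 0.71. Over all genes limma called 0 interactions (0%), with 391 at an unadjusted p under 0.05, and 13 after quantile normalization (0.0706%), none of them among the 7 genes. Dose differences that pass at 24 h and not at 12 h are therefore not shown to differ between the times.

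The other genes of the extrinsic route were a list of 48, of which 42 were measured. With 5 ng over 0 ng at 24 h 8 of the 42 rose and 10 fell, beside 4.52% and 23.5% of all genes, and the list's median of -0.22 was close to the -0.24 of all genes. After quantile normalization 17 rose and 5 fell, beside 20.6% and 17.2% of all genes. With 3 ng 2 rose and 14 fell, beside 1.5% and 23%, and 16 and 3 did so after quantile normalization, beside 15.4% and 12.5%. Between 5 ng and 3 ng at 24 h 5 rose and none fell, beside 1.79% and 0.755%, and 10 and 1 did so after quantile normalization, beside 5.96% and 4.42%. The counts by role that follow are for 5 ng over 0 ng at 24 h, beside 4.52% of all genes that rose and 23.5% that fell as deposited.

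Of 13 other receptors and ligands, 2 rose and 2 fell with 5 ng over 0 ng at 24 h, and 4 rose and 1 fell after quantile normalization. EDAR, the ectodysplasin receptor, rose by 1.36 ± 0.21, with means of 6.12 at 5 ng and 4.76 at 0 ng (limma adjusted p = 5.02e-05, n = 4 arrays in each group). EDA2R, a related receptor known as a p53 target, rose by 0.98 ± 0.15. TNFRSF21, a death receptor also called DR6, fell by 0.91 ± 0.14 (4.72e-05), and by 0.55 after quantile normalization (1.08e-05). The FAS ligand gene FASLG (0.22) and TNF (-0.30) did not pass.

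Of 14 adaptors and kinases, 2 rose and 5 fell, and 4 rose and 3 fell after quantile normalization. PIDD1, a death domain protein of the PIDDosome and a known p53 target, averaged 6.80 ± 0.22 with 0 ng, 7.92 ± 0.23 with 3 ng and 8.50 ± 0.11 with 5 ng at 24 h (SD, n = 4 arrays each). It rose by 1.70 ± 0.15 with 5 ng and by 1.12 ± 0.15 with 3 ng (limma adjusted p = 1.14e-08 and 9.3e-06). TRAF1, an adaptor of TNF receptors induced by NF-kB, rose by 1.15 ± 0.14 with 5 ng (1.58e-06). The falls with 5 ng were 0.99 for TRAF5, an adaptor of the same family, 0.80 for MLKL, the effector of necroptosis, 0.79 for CHUK, a kinase of the NF-kB route, and 0.68 for DAXX, a FAS-binding protein with roles in chromatin. After quantile normalization TRAF5 (-0.71), MLKL (-0.41) and CHUK (-0.39) still passed and DAXX (-0.31) did not. TRAF5 lay below the array medians in all groups, with means of 2.06 to 3.10.

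Of 4 measured genes among the caspases and BID, the substrate of caspase 8 that links it to mitochondria, 2 rose and none fell, and 3 rose after quantile normalization. CASP10, an initiator caspase that FADD can recruit, rose by 1.27 ± 0.19 with 5 ng and by 1.00 ± 0.19 with 3 ng (limma adjusted p = 3.69e-05 and 0.000776). Its group means of 3.21 to 4.48 lay below the array medians. CASP6, an effector caspase, rose by 1.34 ± 0.20 with 5 ng (2.42e-05), and its 0.26 with 3 ng did not pass as deposited. CASP8, the initiator that FADD recruits first, had a difference of -0.49 that did not pass (0.0626), and after quantile normalization it was -0.12.

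Of 11 inhibitors and ubiquitin enzymes, 2 rose and 3 fell, and they are named here after their values were seen. After quantile normalization 6 rose and 1 fell, and after centring each array on its median 4 rose and none fell. Over all genes 20.6% rose and 17.2% fell after quantile normalization, and 2172 and 2730 of 18417 did so after centring. CFLAR, which blocks caspase 8 at the receptor, rose by 0.83 ± 0.18 with 5 ng over 0 ng at 24 h (limma adjusted p = 0.00152), and CYLD, a deubiquitinase, by 0.55; after quantile normalization the rises were 1.16 and 0.91. The falls were 0.58 for BIRC2, a ubiquitin ligase that holds back RIPK1, and 0.57 for RBCK1 and 0.53 for RNF31, subunits of the linear ubiquitin complex. After quantile normalization BIRC2 still passed (-0.30) and RBCK1 (-0.20) and RNF31 (-0.15) did not, and after centring none of the 3 falls passed. Between 5 ng and 3 ng at 24 h the 5 risen genes of the list were CASP6 (1.08), EDAR (1.00), TRAF1 (0.84), EDA2R (0.59) and PIDD1 (0.58).

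**Figure D4:**
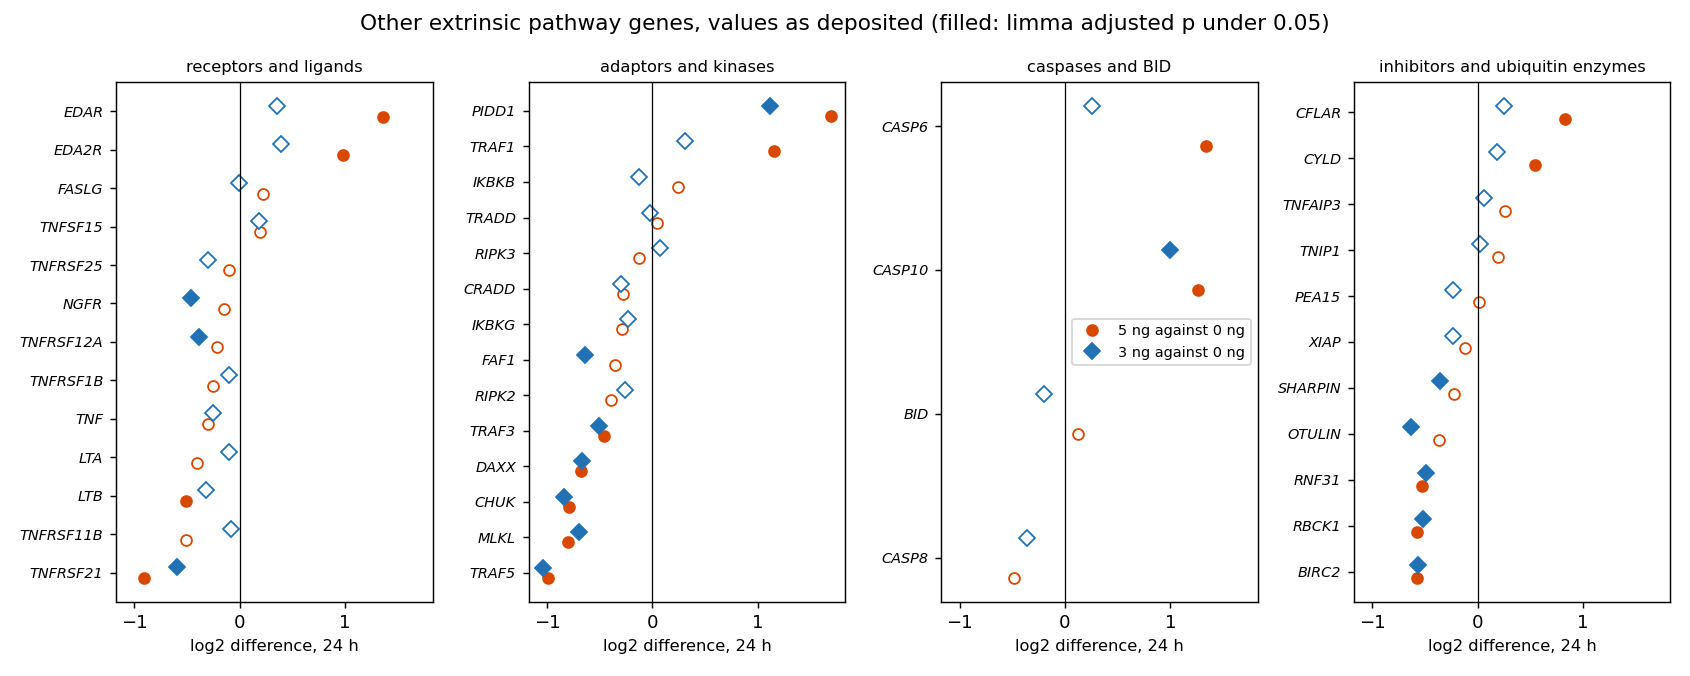
Log2 differences as deposited (horizontal axes) of the 42 other genes of the extrinsic route for 5 ng against 0 ng (circles) and 3 ng against 0 ng (diamonds) at 24 h, in 4 groups, with filled marks where the limma adjusted p is under 0.05. PIDD1 is furthest right at 1.70 and 1.12, and TRAF5 furthest left with 3 ng at -1.04.

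The genes outside the 8 whose 5 group means ran closest to those of FAS, by the root mean square of the differences once each gene was centred on its own mean, were ZNF79 (0.024), EDA2R (0.029), MOSPD1 (0.039), CSNK1G1 (0.04) and TIGAR (0.041). TIGAR, a regulator of glycolysis, is a known p53 target like EDA2R. Their differences for 5 ng over 0 ng at 24 h were 1.04, 0.98, 1.00, 0.96 and 1.03 in that order, beside 1.045 for FAS. For TNFRSF10B the closest were EOMES, IGF1R, NSD1, SLC60A2 and TMEM255A, at 0.027 to 0.032. Among the measured genes TNFRSF10A ranked 23rd in likeness to TNFRSF10B, at 0.047, while FADD ranked 16930th. This likeness rests on 5 means and shared arrays and is a description.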

How the data were processed

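Total RNA of the 20 samples was labelled with biotin and each sample was read on 1 array. The deposited values are log2 signals, 1 per transcript cluster and array. Per the submitters' processing notes, GCOS, GCRMA, Affymetrix Power Tools and limma were used; their versions, roles and order, and the scaling between arrays, are not given in the sources used here. Of 33297 clusters, 19460 carried 1 gene symbol, 1754 several and 12083 none in the platform annotation used here. Entrez identifiers matched 19429 of the 19460 to gene records. For 769 genes with more than 1 cluster the brightest stood for the gene, which left 18417 genes; each measured member had 1 cluster.

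A model with a mean per group was fitted to all arrays with limma 3.58.1 (R 4.3.3, 15 residual degrees of freedom, eBayes). Promoter windows of chromosome 8 were not used. P-values were Benjamini-Hochberg adjusted over all genes and called under 0.05. The script was tested on simulated data. The members and lists were chosen with earlier results of these data known. The rule for named genes took up to 5 rises and 5 falls of the pathway list past the threshold and the 5 closest patterns to FAS and TNFRSF10B. Alternatives were a replicate block, quantile normalization, median centring, only the groups compared, removal of the dimmest 30% of genes, averaged clusters, trend and robust eBayes, and each array left out. The number of arrays limits precision. No 2 arrays were identical, and the highest correlation between 2 was 0.986041.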

Additional observations from a re-analysis of the deposited data

Results flagged for a closer look

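For FAS with 3 ng at 24 h, replicate 4 stood apart from the other arrays of its group. It measured 8.76, against 9.02 to 9.07 in the other 3 arrays, a gap of 0.839 of the group's range, past Dixon's 95% limit for 4 arrays. Of 35 groups of 4 arrays checked over the 7 genes this was the only one past the limit, and chance passes about 1 group in 20. After quantile normalization the same array measured 9.12, within 0.01 of the next one at 9.13. Without it the difference of FAS between 5 ng and 3 ng at 24 h was 0.57, as deposited.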

How the results depend on the processing

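FAS, TNFRSF10D and FADD kept their calls for 5 ng against 0 ng at 24 h under each alternative and without each of the 8 arrays. The other counts moved. Of the 7 genes, the number called for 5 ng against 0 ng at 24 h was 3 as deposited, 7 after quantile normalization and 6 after centring on the median. Over all 18417 genes 5166, 6958 and 4902 were called in these settings. For 3 ng against 0 ng at 24 h 1 of the 7 was called, then 5 after quantile normalization. It was 2 without the dimmest 30% of genes or with trend and robust eBayes. The calls over all genes were 4504, 5142, 5097 and 5125 in that order. For 5 ng against 3 ng at 24 h 1 of the 7 was called, then 5 after quantile normalization and 2 with the replicate block. It was 3 after centring, with only the groups compared, without dim genes, or with trend and robust eBayes. The calls over all genes were 468, 1911, 495, 946, 678, 589 and 639 in that order. For 5 ng at 12 h against 0 ng at 24 h 4 of the 7 were called, then 6 after quantile normalization, centring or the dim filter. It was 5 with the block or with trend and robust eBayes, and 2 with only the groups compared. The calls over all genes were 2750, 4742, 3046, 3439, 3044, 3487 and 1848 in that order. For 3 ng at 12 h against 0 ng at 24 h 1 of the 7 was called, then 5 after quantile normalization. It was 0 with only the groups compared, where FAS was 0.86 (limma adjusted p = 0.0643). With the block, centring, the dim filter, or trend and robust eBayes it was 2. The calls over all genes were 519, 2797, 232, 702, 3620, 947 and 1118 in that order. For 24 h against 12 h with 3 ng 0 of the 7 were called, then 2 after quantile normalization and 1 with trend and robust eBayes. The calls over all genes were 816, 2943 and 1180 in that order. The causes were not tested.

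With 1 array left out the number called as deposited was 3 to 5 for 5 ng against 0 ng at 24 h (6 to 7 after quantile normalization), 1 to 2 for 3 ng against 0 ng (5 to 5), 0 to 0 for 5 ng against 3 ng at 24 h (4 to 5) and 0 to 0 at 12 h. It was 2 to 5 for 5 ng at 12 h against 0 ng (5 to 6), 1 to 2 for 3 ng at 12 h against 0 ng (5 to 5), 0 to 0 for 24 h against 12 h with 5 ng (0 to 1), 0 to 1 with 3 ng (2 to 3), and 0 for the interaction. Over all genes the range for 5 ng against 0 ng at 24 h was 3956 to 5324 (6327 to 6969). For 3 ng it was 2782 to 5058 (4350 to 5303). Between doses it was 276 to 374 (1373 to 1749) at 24 h and 0 to 11 at 12 h. With 5 ng at 12 h against 0 ng it was 1510 to 3086 (4074 to 4748). With 3 ng at 12 h it was 257 to 2782 (2018 to 2869). For 24 h against 12 h with 5 ng it was 506 to 811 (2651 to 3232). With 3 ng it was 484 to 1395 (2178 to 2951).

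Signs turned as follows, first after quantile normalization and then after centring. TNFRSF1A came to 0.30 and 0.18 for 5 ng and 0.31 and 0.055 for 3 ng against 0 ng at 24 h, and to 0.19 and 0.23 for 24 h against 12 h with 3 ng. TNFRSF10A came to 0.25 and 0.033, and TNFRSF10B to 0.38 and 0.17, for 3 ng against 0 ng. FADD came to 0.10 and 0.13 for 24 h against 12 h with 5 ng, and to 0.18 and 0.25 with 3 ng. After quantile normalization alone TNFRSF1A came to -0.006 for 5 ng against 3 ng at 24 h, and to 0.11 for 5 ng and 0.12 for 3 ng at 12 h against 0 ng. After centring alone TNFRSF1A came to 0.14 for 5 ng against 3 ng at 12 h, and TNFRSF10A to 0.073 and TNFRSF10B to 0.035 for 24 h against 12 h with 5 ng. None of these differences was called as deposited.

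Without 1 array the sign turned in these ranges as deposited. For 3 ng against 0 ng at 24 h TNFRSF10D ran from -0.091 to 0.12, TNFRSF10B from -0.16 to 0.043 and TNFSF10 from -0.18 to 0.43. TNFRSF1A ran from -0.13 to 0.023 for 5 ng against 3 ng at 12 h, and from -0.15 to 0.001 for 24 h against 12 h with 3 ng, where FADD ran from -0.20 to 0.11. For 24 h against 12 h with 5 ng FAS ran from -0.044 to 0.053 and FADD from -0.096 to 0.044. The change of FAS less that of TNFRSF10D between 5 ng and 3 ng at 24 h ran from -0.027 to 0.067. After quantile normalization the sign turned for TNFRSF1A between 5 ng and 3 ng, from -0.051 to 0.047 at 24 h and from -0.051 to 0.065 at 12 h, and between 24 h and 12 h with 5 ng for TNFRSF10A, from -0.036 to 0.026, and TNFSF10, from -0.30 to 0.046.

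Of 32 same-numbered pairs of arrays, 8 had deviations from their group means correlated above 0.1 as deposited (range -0.18 to 0.50). After quantile normalization 9 did (range -0.029 to 0.217). On that scale the same-numbered correlation was above the highest with arrays of other numbers in most pairs. For 3 ng against 0 ng at 24 h it was so for each replicate, with 0.145 beside 0.017 for replicate 1. Others went the other way, as with replicate 1 of 3 ng at 12 h against 0 ng (0.021 beside 0.123). As deposited it was above in about as many pairs as below. The pairs share arrays and no test was made, so whether replicate numbers pair the samples is not settled. With the replicate block TNFRSF10D passed for 5 ng against 3 ng at 24 h (0.62, adjusted p = 0.0394), TNFSF10 for 5 ng at 12 h against 0 ng (0.90, 0.0235) and FADD for 3 ng at 12 h against 0 ng (-0.57, 0.0446). It changed no other call of the 7 genes. Over all genes, quantile normalization changed the number called from 468 to 1911 for 5 ng against 3 ng at 24 h and from 4 to 506 at 12 h, from 2750 to 4742 and from 519 to 2797 for 5 ng and 3 ng at 12 h against 0 ng, and from 731 to 3386 and from 816 to 2943 for 24 h against 12 h with 5 ng and 3 ng. For 3 ng at 12 h against 0 ng centring gave 3620, only the groups compared 232, the dim filter 947 and trend and robust eBayes 1118. Centring gave 946 for 5 ng against 3 ng at 24 h and 1246 for 24 h against 12 h with 5 ng. At 12 h the 4 genes called between doses became 206 after centring, 23 with the dim filter, 32 with trend and robust eBayes, 2 with the block and 0 with only the groups compared. Quantile normalization with an array left out, and the differences between genes within an array, were added after the data were seen.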
